A study of Homo sapiens with 12 samples.

Results

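The miR-324 hairpin gives 2 mature strands, hsa-miR-324-5p and hsa-miR-324-3p, and both were followed through 12 small-RNA libraries of HCT116, a human colorectal carcinoma cell line. The pair was chosen by name, 2 of 1346 miRNA entries, because this hairpin is known to switch its dominant arm when DICER cuts it at a shifted site. Earlier results of these data were known when the choice was made. Each library came from cells rescued with one form of DICER. The 6 groups of 2 libraries were R821E, R821A, E5, A5, ΔPAZ helix and wild type (WT). In R821E and R821A the arginine of that name is replaced by glutamate or alanine, and the name ΔPAZ helix says that a helix of the PAZ domain was deleted. The sources used here do not state the meaning of E5 and A5, how the cells' own DICER was removed, how much rescue protein the cells made, or whether a group was a single clone. All groups share the cell line and the rescue. The labels do not tie the libraries of a group to separate cultures, and the spread behind each p-value, which is that between libraries, may be technical.

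DICER is the RNase III enzyme that cuts the loop from a precursor hairpin and leaves a duplex of the 5p and 3p strands, and one strand of the duplex is then loaded into an Argonaute protein. In human cells the terminal uridylyl transferases TUT4 and TUT7 can add uridine to the 3′ end of the miR-324 precursor, which moves DICER on the hairpin and shifts the cut. The duplex made by the shifted cut favours the 3p strand, while the other favours 5p. miR-324-5p is known to repress GLI1 and SMO of the Hedgehog pathway. The deposited tables hold 1 count per named strand, so reads that begin or end at a shifted position were not separated.

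The mature strands are shown as annotated, with the seed, bases 2 to 8 of the strand, in capitals. The seed sets which mRNAs a miRNA pairs with, and a change of arm changes the seed. A strand that begins at a shifted position would have another seed than the one shown.
hsa-miR-324-5p: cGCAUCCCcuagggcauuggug
hsa-miR-324-3p: cCCACUGCcccaggugcugcugg
The strands have 22 and 23 bases, and the letters of their seeds differ. Among 2370 mature miRNA names in the RefSeq table of GRCh38.p14, no other name had the seed of either strand, and no other hairpin of 1561 held either mature sequence. The hairpin has 83 bases, shown next with the mature strands in capitals to place the arms and the loop.
MIR324: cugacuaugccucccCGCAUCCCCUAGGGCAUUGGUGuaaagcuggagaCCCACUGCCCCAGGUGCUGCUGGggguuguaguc
The 5p strand covers bases 16 to 37 of the hairpin and the 3p strand bases 50 to 72, with 12 bases between them, counted from the 5′ end. In the minimum free energy fold of RNAfold (-36.8 kcal/mol) 16 base pairs joined the strands. The first base of 3p was paired in that fold and the first base of 5p was not. MIR324 lies on the minus strand at chr17:7223297-7223379 (GRCh38.p14), with miR-324-5p at 7223343 to 7223364 and miR-324-3p at 7223308 to 7223330. In GENCODE 29 the hairpin overlaps no exon of another gene and sits in intronic sequence of ACADVL, a gene for a mitochondrial fatty acid dehydrogenase that is read from the opposite strand.

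The libraries held 144067 to 255296 miRNA counts. Spike-in sequences took 3.71% to 6.96% of all counts, and miRNA counts per spike-in count were 13.4 and 15.3 in R821E, 16.5 to 21.5 in the other mutants, and 22.4 and 25.9 in WT. A total of 3 counts corresponded to 11.8 to 20.8 CPM (counts scaled to library size). This limit covers counting error alone, because any reads that PCR copied from the same molecule are not separate molecules. Of 8 epithelial and colonic miRNAs, 7 had a count in every library and miR-215-5p had at most 2, and their summed level was 942 to 2967 CPM. Of 16 miRNAs of other cell types 14 were in the tables and 8 had a count in every library, with a summed level of 1701 to 3028 CPM. Among these, miR-133a-3p of muscle and miR-124-3p of neurons had 1 count each over all libraries, whereas miR-9-5p of the neuron list had 114 to 199 counts in every library. The epithelial list was at 942 to 1076 CPM in R821E, at 2160 to 2950 CPM across the other mutants and at 2746 to 2967 CPM in WT. The leukocyte list was at 125 to 148 CPM in R821E, 284 to 537 CPM across the other mutants and 295 to 443 CPM in WT. The fibroblast and endothelial list was at 502 to 583 CPM in R821E, 1155 to 1708 CPM across the other mutants and 1258 to 1583 CPM in WT. The neuron list went the other way, at 868 to 972 CPM in R821E, 621 to 835 CPM across the other mutants and 526 to 562 CPM in WT. The erythroid list overlapped between groups, at 174 to 305 CPM in R821E, 143 to 273 CPM across the other mutants and 142 to 191 CPM in WT. The hepatocyte list stayed at 10.3 CPM or less in every library and the muscle list at 4.45 CPM or less. These sums were scaled to library size alone. On that scale the median log2 fold change of all entries was -0.65 in R821E against WT. The part of these lists in the results on miR-324 was not tested.

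miR-324-5p was lower in all 10 mutant libraries than in either WT library. Levels are given as CPM on the trimmed-mean (TMM) scale, which sets each miRNA against the bulk of the others. The 5p level was 85.5 and 181 CPM in R821E (14 and 21 counts), 340.0 and 211 CPM in R821A (97 and 46 counts), 171 and 242 CPM in E5 (31 and 58 counts), 299 and 319.7 CPM in A5 (60 and 85 counts), 315 and 259 CPM in ΔPAZ helix (70 and 50 counts), and 711 and 397 CPM in WT (205 and 104 counts). The 2 WT libraries stood further apart for miR-324-5p than for most entries. Their log2 gap for 5p was 0.83, with a median gap of 0.37 over 374 tested entries, of which 68 had a larger gap than miR-324-5p. All 5 mutants lay below both WT libraries for 26 of the 374 entries (6.95%). For single mutants, R821E had 39.8% of entries below both WT libraries, R821A 17.6%, E5 23.8%, A5 19.5% and ΔPAZ helix 20.9%. In these bulk libraries a lower level in every cell and fewer cells with the miRNA cannot be told apart.

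From the highest mutant mean down, miR-324-5p averaged 309 ± 14.4 CPM in A5, 287 ± 39.3 in ΔPAZ helix, 276 ± 91.0 in R821A, 207 ± 50.2 in E5 and 133 ± 67.8 in R821E, and it averaged 554 ± 222 CPM in WT, above them all (SD, n = 2 each). The libraries of A5 and WT did not overlap, while every pair of neighbours among the mutants did. The rank of the strand by level among 374 entries was 214 in R821E, 151 to 176 in R821A, E5, A5 and ΔPAZ helix, and 118 in WT.

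miR-324-3p followed another order, with the mean of R821A above that of WT on the TMM scale and below it per spike-in count. The 3p level was 202 and 259 CPM in R821E (33 and 30 counts), 641 and 501 CPM in R821A (183 and 109 counts), 342 and 492 CPM in E5 (62 and 118 counts), 384 and 478 CPM in A5 (77 and 127 counts), 315 and 291 CPM in ΔPAZ helix (70 and 56 counts), and 527 and 431 CPM in WT (152 and 113 counts). R821E and ΔPAZ helix libraries lay below both WT libraries, and R821A, E5 and A5 libraries overlapped with WT. The mean was 571 ± 99.5 CPM in R821A, 431 ± 66.2 in A5, 417 ± 106 in E5, 303 ± 17.2 in ΔPAZ helix and 230.4 ± 40.7 in R821E, against 479 ± 67.8 in WT, which stood between R821A and A5 (SD, n = 2 each). Neighbours in the order of means overlapped from R821A through WT and A5 to E5, and E5, ΔPAZ helix and R821E were separate from one another. The share of all entries that separate these pairs of mutants was not counted, so nothing is read from that separation. The rank of 3p by level was 169 in R821E, 113 in R821A, 131 in E5, 126 in A5, 159 in ΔPAZ helix and 130 in WT. The WT libraries were 0.28 apart on the log2 scale for 3p, and 228 of 374 entries had a larger gap.

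**Figure D1:**
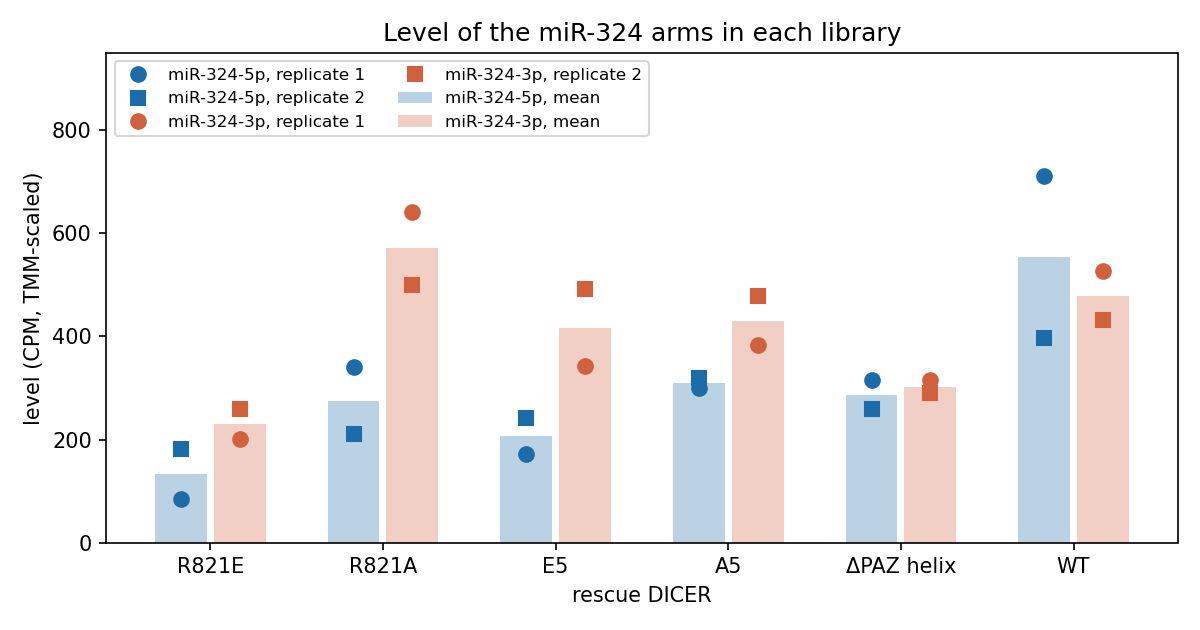
Level of miR-324-5p (blue) and miR-324-3p (orange) in CPM on the TMM scale, by rescue DICER; bars are means of 2 libraries, circles replicate 1 and squares replicate 2. All mutant 5p values lie under the lower WT value of 397 CPM, and 3p is highest on this scale in R821A, at 641 and 501 CPM.

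The share of miR-324 counts from the 5p strand was below both WT libraries in R821E, R821A, E5 and A5. The 5p strand made up 29.8% and 41.2% of miR-324 counts in R821E (exact Clopper-Pearson 95% intervals 17.3% to 44.9% and 27.6% to 55.8%). Its share was 34.6% and 29.7% in R821A (29.1% to 40.5% and 22.6% to 37.5%). It was 33.3% and 33.0% in E5 (23.9% to 43.9% and 26.1% to 40.4%), and 43.8% and 40.1% in A5 (35.3% to 52.5% and 33.4% to 47.0%). ΔPAZ helix had 50% and 47.2% (41.4% to 58.6% and 37.4% to 57.1%), against 57.4% and 47.9% in WT (52.1% to 62.6% and 41.1% to 54.8%). The 5p strand led in 1 library, WT replicate 1, equalled 3p in ΔPAZ helix replicate 1 and was the lesser strand in the other 10 libraries. Intervals cover counting error only, and reads of the same library share its preparation.

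In order of size, the mean 5p share was 48.6% ± 2.00 in ΔPAZ helix, 41.9% ± 2.62 in A5, 35.5% ± 8.05 in R821E, 33.1% ± 0.268 in E5 and 32.2% ± 3.51 in R821A, against 52.7% ± 6.72 in WT (SD, n = 2 each). ΔPAZ helix overlapped with WT and was separate from A5, and A5, R821E, E5 and R821A overlapped as neighbours. The share of all hairpins that separate ΔPAZ helix from A5 was not counted, so nothing is read from that gap. Among 69 hairpins with both arms measured, the share of hairpins whose 5p to 3p ratio lay below both WT libraries was 26.1% in R821E, 18.8% in R821A, 7.25% in E5, 11.6% in A5 and 14.5% in ΔPAZ helix. For 1 of the 69 hairpins (1.45%), which was not miR-324, it did so in all 5 mutants.

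**Figure D2:**
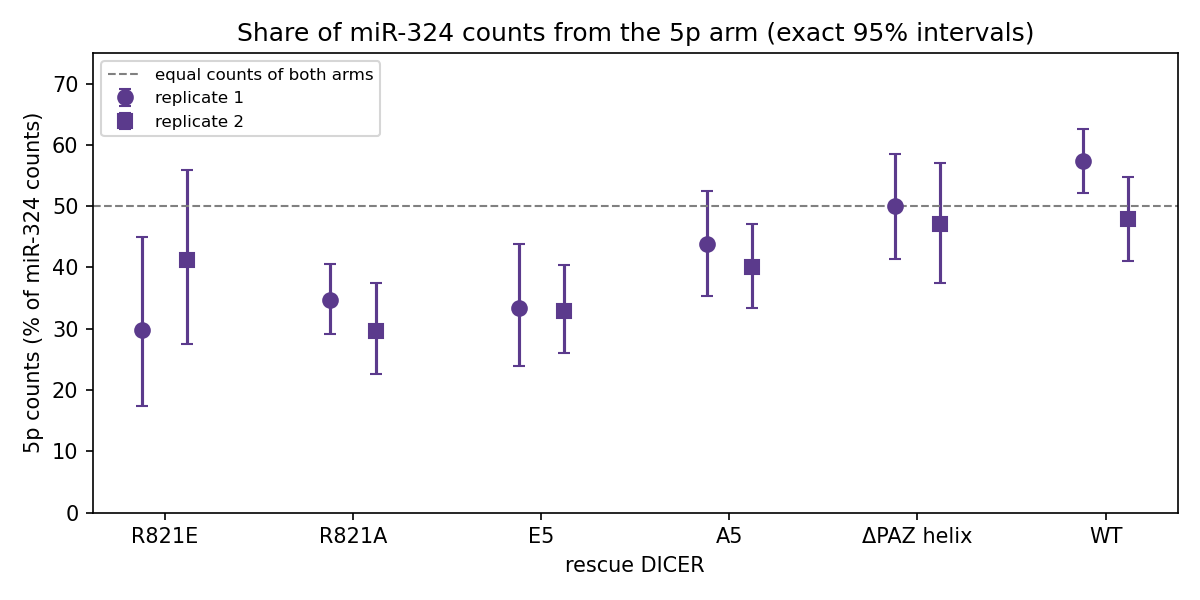
Share of miR-324 counts that come from the 5p strand in each library, in percent, by rescue DICER; circles are replicate 1, squares replicate 2, and bars the exact 95% interval for counting error. The dashed line marks equal counts of both strands; R821A and E5 lie between 29.7% and 34.6% and WT at 57.4% and 47.9%.

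Against WT, both strands of miR-324 fell in R821E. The log2 fold change of miR-324-5p, the repressor of GLI1, was -2.11 ± 0.396 (SE; 95% interval -2.96 to -1.26, edgeR adjusted p = 9.17e-04), rank 9 from the lowest of 374 entries. That of miR-324-3p was -1.07 ± 0.270 (-1.65 to -0.49, adjusted p = 0.00560), rank 66. The sum of both strands was 287 and 441 CPM in R821E, against 1238 and 828 CPM in WT, and fell by 1.53 ± 0.293 on the log2 scale (adjusted p = 0.00122). In R821E 47.9% of entries and 47.3% of hairpin totals were called, so a call alone was common in this mutant. Of the called entries 89 were higher and 90 lower on the TMM scale, 40 higher and 148 lower with total counts, and 1 higher and 226 lower against the spike-in sequences. The 5p call held in each fit that left out 1 library. Without R821E replicate 1 the 3p value was -0.86 and did not pass (adjusted p = 0.0905).

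In E5 miR-324-5p fell and miR-324-3p did not pass the test. The log2 fold change was -1.41 ± 0.351 for 5p (95% interval -2.16 to -0.66, adjusted p = 0.0266), rank 10 from the lowest, and -0.19 ± 0.244 for 3p (-0.72 to 0.33, adjusted p = 0.702). The sum of the strands was 513 and 734 CPM in E5, against 1238 and 828 CPM in WT, with a log2 fold change of -0.69 ± 0.270 (-1.28 to -0.11, adjusted p = 0.154), or -0.98 without WT replicate 2 (adjusted p = 0.0409). In E5 9.09% of entries and 11.7% of hairpin totals were called. Of the entries 9 were higher and 25 lower on the TMM scale, while set against spike-in sequences 0 were higher and 102 lower. The 5p call of E5 rested on single libraries. It was -0.92 without WT replicate 1 (adjusted p = 0.115), -1.17 without E5 replicate 1 (adjusted p = 0.135) and -1.68 without E5 replicate 2 (adjusted p = 0.0822), and in a fit of only the 4 libraries compared the value of -1.42 had adjusted p = 0.262.

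In R821A the strands parted in sign and neither passed the test. miR-324-5p had a log2 fold change of -0.995 ± 0.336 (95% interval -1.72 to -0.27, unadjusted p = 0.0106, adjusted p = 0.172), rank 16 of 374. miR-324-3p had 0.26 ± 0.239 (-0.26 to 0.77, adjusted p = 0.801), and -0.09 when counts were set against the spike-in sequences. The summed strands had -0.28 ± 0.264 (-0.85 to 0.30, adjusted p = 0.759). In R821A 3.21% of entries and 3.53% of hairpin totals were called. The 5p value was -0.51 without WT replicate 1 (adjusted p = 0.517) and -1.34 without WT replicate 2 (adjusted p = 0.0348), so the choice of WT library set the side of the threshold.

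A5 and ΔPAZ helix gave no call for miR-324. In A5 the log2 fold change was -0.84 ± 0.335 for 5p (95% interval -1.56 to -0.12, adjusted p = 0.266), -0.15 ± 0.243 for 3p (-0.67 to 0.37, adjusted p = 0.887) and -0.48 ± 0.266 for the sum (-1.06 to 0.10, adjusted p = 0.448). Without WT replicate 1 the A5 values were -0.35 for 5p and -0.18 for the sum, and without WT replicate 2 the 5p value was -1.19. In ΔPAZ helix the log2 fold change was -0.95 ± 0.340 for 5p (-1.68 to -0.21, adjusted p = 0.268), -0.66 ± 0.251 for 3p (-1.20 to -0.12, adjusted p = 0.276) and -0.79 ± 0.271 for the sum (-1.38 to -0.20, adjusted p = 0.194). Without WT replicate 1 it was -0.45 for 5p and -0.50 for the sum, and without WT replicate 2 it was -1.28 for 5p. Either mutant called 0.267% of entries, 1 each by edgeR, with 52 (A5) and 44 (ΔPAZ helix) at an unadjusted p under 0.05. Of hairpin totals, ΔPAZ helix called 1.06% and A5 called 0% by edgeR and by DESeq2, with 40 of 283 at an unadjusted p under 0.05 in edgeR. The ranks of miR-324-5p, 18 of 374 in A5 and 17 in ΔPAZ helix, were close to its rank in R821A, and all of these comparisons share the same 2 WT libraries.

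**Figure D3:**
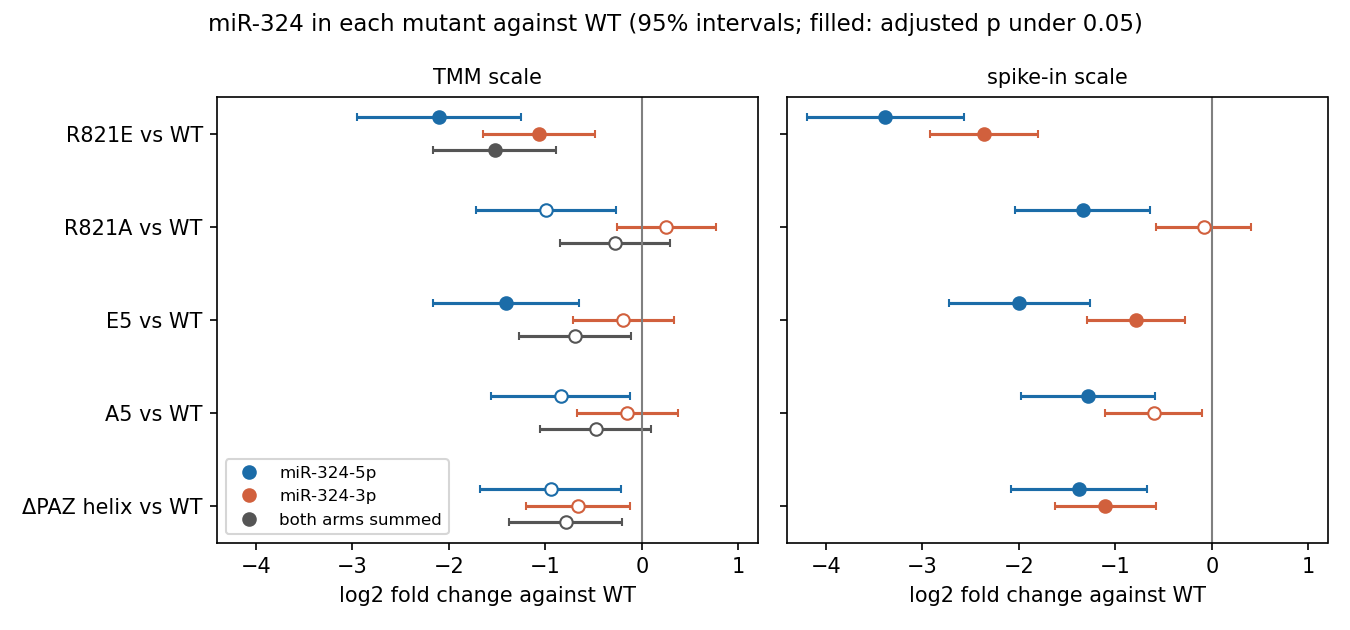
Log2 fold change against WT for miR-324-5p (blue), miR-324-3p (orange) and, on the left, both strands summed (grey), with 95% intervals; filled points passed an adjusted p of 0.05 in edgeR. The left panel is on the TMM scale and the right on the spike-in scale, where 5p passed in all 5 mutants, with log2 fold changes of -3.39 to -1.29.

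Relative to the spike-in sequences miR-324-5p fell in all 5 mutants, and the median of all entries was also below 0 in each. This scale assumes that every library received the same amount of spike-in sequence for its total RNA, which was not tested. On that scale the log2 fold change of miR-324-5p was -3.39 in R821E, -1.34 in R821A, -1.99 in E5, -1.29 in A5 and -1.38 in ΔPAZ helix, and all 5 passed (edgeR, largest adjusted p = 0.0279). The share of entries called as lower on that scale was 60.4%, 4.28%, 27.3%, 14.7% and 13.1% in that order. The median of all entries was -1.38, -0.35, -0.56, -0.46 and -0.45 in the same order of mutants. miR-324-3p fell by 2.36 in R821E, 0.78 in E5 and 1.10 in ΔPAZ helix on that scale, while its values of -0.60 in A5 and -0.09 in R821A did not pass (adjusted p = 0.101 and 0.835). Per 1000 spike-in counts, R821E had 0.935 and 1.95 counts of miR-324-5p, R821A 6.69 and 4.78, E5 3.06 and 4.22, A5 5.67 and 6.32, ΔPAZ helix 6.41 and 4.86, and WT 18.3 and 10.9. Of miR-324-3p, R821E had 2.20 and 2.78 counts per 1000 spike-in counts, R821A 12.6 and 11.3, E5 6.12 and 8.58, A5 7.28 and 9.45, ΔPAZ helix 6.41 and 5.44, and WT 13.6 and 11.9. The 3p values of R821A overlapped with those of WT, and the highest value of the other 4 mutants was 9.45, in A5.

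The strand ratio is free of the scale, since both strands are counted in the same library. R821E libraries had log2 ratios of 5p to 3p counts of -1.21 and -0.50, R821A libraries -0.91 and -1.24, E5 libraries -0.99 and -1.02, A5 libraries -0.36 and -0.58, ΔPAZ helix libraries 0.00 and -0.16, and WT libraries 0.43 and -0.12. In R821E the change against WT was -1.01 ± 0.350 (SE; 95% interval -1.77 to -0.25, limma adjusted p = 0.0274), and 55.1% of the 69 hairpins were called in that mutant. The change was -1.23 ± 0.350 in R821A (-1.99 to -0.47, adjusted p = 0.0926), -1.16 ± 0.350 in E5 (-1.92 to -0.40, adjusted p = 0.102), -0.62 ± 0.350 in A5 (-1.38 to 0.14, adjusted p = 0.416) and -0.24 ± 0.350 in ΔPAZ helix (-0.995 to 0.52, adjusted p = 0.835). The unadjusted p was 0.00403 in R821A, 0.00589 in E5 and 0.0130 in R821E, so the mutant with the call did not have the smallest p. Adjustment runs over the hairpins of each comparison.

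By limma, 4.35% of hairpin ratios were called in E5 and 0% in R821A, A5 and ΔPAZ helix, where 8, 7 and 10 of 69 hairpins had an unadjusted p under 0.05. A count model of both strands in edgeR called 2 hairpins in R821A, 0 in A5 and 1 in ΔPAZ helix. miR-324 was among the calls of this model in R821A, with a ratio change of -1.23 (adjusted p = 0.0377), and in E5, with -1.18 (adjusted p = 0.0364). It called 2.9% of hairpins in R821A and 5.8% in E5. The call in R821E was lost without WT replicate 1, at -0.74 (adjusted p = 0.191), without R821E replicate 1, at -0.66 (adjusted p = 0.207), and with only the 4 libraries compared (adjusted p = 0.0830).

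Among the hairpins, miR-324 had the most negative change of 69 in R821A and in E5. It ranked 3 from the lowest in A5, 6 in R821E and 18 in ΔPAZ helix. The median change of all hairpins was 0.40 in R821E, -0.03 in R821A, 0.13 in E5, 0.02 in A5 and 0.08 in ΔPAZ helix. In R821E the ratio of miR-324 thus moved to the side opposite to that median. Of the ratios called in R821E 28 were higher and 10 lower, miR-324 among the latter. Its neighbours in the order were let-7g (-1.14) and miR-31 (-0.92) in R821E, miR-31 (-1.09) in R821A, miR-30a (-0.76) in E5, miR-26b (-0.71) and miR-93 (-0.58) in A5, and miR-629 (-0.26) and miR-151a (-0.21) in ΔPAZ helix. In WT the ratio of miR-324 ranked 24 from the lowest of the 69, and 46 hairpins were led by 5p. The WT libraries were 0.55 apart in the log2 ratio of miR-324, with a median gap of 0.46 over the hairpins and 28 hairpins further apart.

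**Figure D4:**
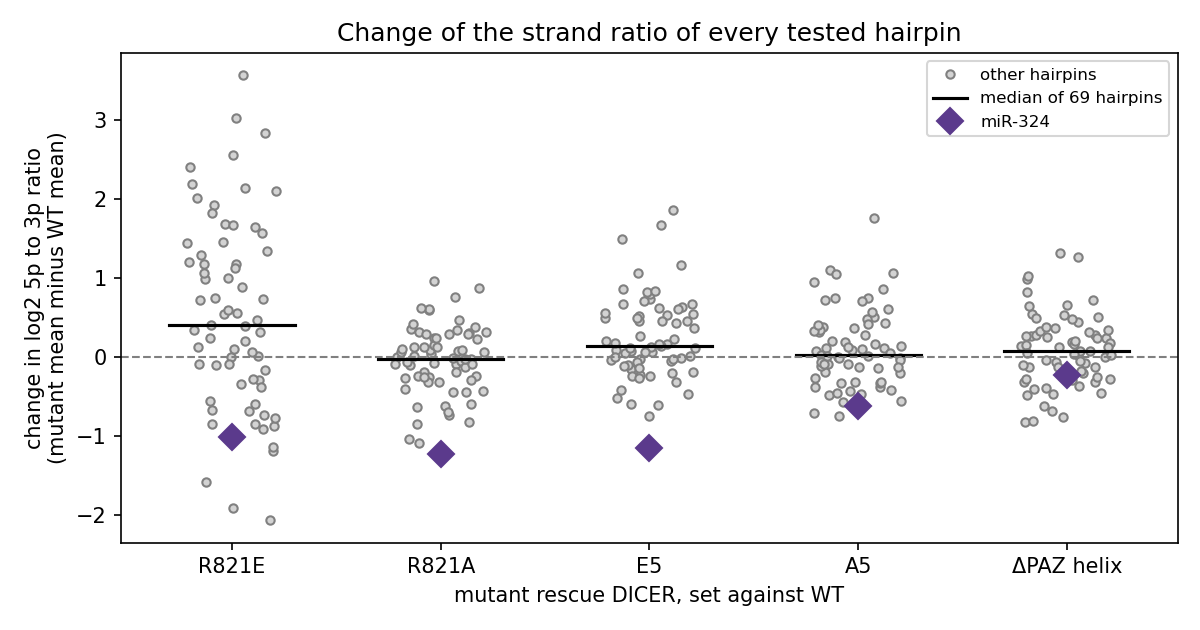
Change of the log2 5p to 3p count ratio, mutant mean minus WT mean, for 69 hairpins in each mutant; grey points are the other hairpins, black lines the median and purple diamonds miR-324. miR-324 is the lowest point in R821A (-1.23) and E5 (-1.16), and lies below the median of 0.40 in R821E (-1.01).

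Between mutants, R821E had less of both strands than R821A but no ratio difference that passed. miR-324-3p was lower in R821E than in R821A by a log2 difference of -1.33 ± 0.269 (95% interval -1.91 to -0.75, edgeR adjusted p = 0.00215), with 202 and 259 CPM in R821E, against 641 and 501 CPM in R821A. miR-324-5p had -1.11 ± 0.411 (-1.997 to -0.23, adjusted p = 0.0434), with 85.5 and 181 CPM in R821E, against 340.0 and 211 CPM in R821A. The sum had -1.25 ± 0.295 (-1.89 to -0.61, adjusted p = 0.00571). The ratio difference was 0.22 ± 0.350 (-0.54 to 0.98, limma adjusted p = 0.651). This comparison called 41.4% of entries, 39.6% of hairpin totals and 39.1% of ratios. Of its called entries 82 were higher and 73 lower in R821E on the TMM scale, and 19 higher and 132 lower with total counts. Without R821E replicate 1 the 5p difference was -0.60 (adjusted p = 0.387) and that of the sum -1.02 (adjusted p = 0.0571), and without R821A replicate 1 the 5p difference was -0.70 (adjusted p = 0.299). The 3p difference passed in every fit that left out 1 library.

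R821E had less miR-324-3p than E5, while the difference in miR-324-5p did not pass. The log2 difference, R821E against E5, was -0.88 ± 0.275 for 3p (95% interval -1.47 to -0.29, edgeR adjusted p = 0.0280), -0.70 ± 0.427 for 5p (-1.61 to 0.22, adjusted p = 0.241) and -0.83 ± 0.299 for the sum (-1.48 to -0.19, adjusted p = 0.0492). The ratio differed by 0.15 ± 0.350 (-0.61 to 0.91, limma adjusted p = 0.783). The comparison called 30.2% of entries, 32.2% of hairpin totals and 18.8% of ratios, with 61 entries higher and 52 lower on the TMM scale and 11 higher and 103 lower with total counts. The 3p call was lost without E5 replicate 2 (-0.61, adjusted p = 0.223), without R821E replicate 1 (-0.68, adjusted p = 0.217) and without R821E replicate 2 (-0.99, adjusted p = 0.0775). That of the sum was lost without E5 replicate 2 (-0.54, adjusted p = 0.284), without R821E replicate 1 (-0.58, adjusted p = 0.271) and in a fit of only the 4 libraries (adjusted p = 0.0806).

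No difference between E5 and A5 passed for miR-324. E5 against A5 gave a log2 difference of -0.57 ± 0.363 for 5p (95% interval -1.35 to 0.21, edgeR adjusted p = 0.626), -0.04 ± 0.248 for 3p (-0.57 to 0.49, adjusted p = 0.949), -0.21 ± 0.273 for the sum (-0.81 to 0.38, adjusted p = 0.805) and -0.54 ± 0.350 for the ratio (-1.30 to 0.22, limma adjusted p = 0.641). No feature of any kind was called in this comparison (0%). By edgeR 36 entries and 28 hairpin totals, and by limma 1 ratio, had an unadjusted p under 0.05, and DESeq2, limma-voom (entries) and the count model of both strands (ratios) also called 0.

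Across the 12 libraries the log2 CPM of the 2 strands had a Pearson r of 0.69 and a Spearman rho of 0.62, a description of libraries that share 6 groups and differ in depth. Among the 249 other entries that averaged 100 CPM or more, those most like miR-324-5p were miR-185-5p (Pearson r = 0.90), miR-99b-5p (0.88), let-7i-3p (0.86), miR-128-3p (0.86) and miR-25-3p (0.85). Of these, miR-185-5p had log2 fold changes against WT of -2.96 in R821E, -1.42 in R821A and -1.62 in E5, all called by edgeR. miR-25-3p was called as lower in R821E, R821A, E5 and ΔPAZ helix. let-7i-3p was called as lower in R821E, R821A and E5, miR-99b-5p in R821E and E5, and miR-128-3p in R821E alone. All 5 were chosen for following miR-324-5p over these same libraries, so nothing is read from their calls. The entries most like miR-324-3p were miR-484 (0.89), miR-139-5p (0.86), miR-3615 (0.85), miR-652-3p (0.84) and miR-142-3p (0.83). All 5 fell in R821E, with log2 fold changes of -1.22 to -0.91, and none passed in another mutant against WT. These entries were chosen for following miR-324-3p, which is itself lowest in R821E, and 47.9% of all entries were called there, against 0.267% to 9.09% in the other mutants, so nothing is read from this count. miR-142-3p, a leukocyte miRNA, had 29 and 14 counts in R821E, 117 and 76 in R821A, and 93 and 65 in WT. The 2 sets of 5 held no entry in common. With Spearman's rho 3 of the 5 stayed among the 5 nearest for miR-324-5p and 1 of 5 for miR-324-3p.

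Of 68 other hairpins, those whose 5p to 3p ratio followed that of miR-324 most closely over the 12 libraries were miR-30a (Pearson r = 0.78), miR-31 (0.71), miR-181a (0.51), let-7a (0.49) and miR-30d (0.49). The ratio change of miR-30a against WT was -0.74 in R821E, where it passed (limma adjusted p = 0.0274), and -0.85 in R821A, -0.76 in E5, -0.46 in A5 and -0.63 in ΔPAZ helix, where it did not. For miR-31 it was -0.92 in R821E, which passed. It was -1.09 in R821A, -0.21 in E5, -0.33 in A5 and -0.18 in ΔPAZ helix, which did not pass. In R821E miR-181a (-0.85) and let-7a (-1.91) passed and miR-30d (-0.34) did not, and none of them passed in another mutant. In R821E 55.1% of all 69 ratios were called, against 0% to 4.35% in the other mutants. These hairpins were chosen for following the ratio of miR-324 over the same 12 libraries, so nothing is read from their calls.

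Precursors of the group II let-7 family gain a single uridine from the same transferases before dicing, and group I precursors do not need it. Of 6 group II guide strands, 4 fell and none rose in each of R821E, R821A and E5, and none passed in A5 or ΔPAZ helix. Over all 374 entries 90 fell in R821E, 11 in R821A and 25 in E5. The 4 were let-7d-5p, let-7f-5p, let-7i-5p and miR-98-5p in each case, listed after their values were seen. The median log2 fold change of the 6 on the TMM scale was -0.94 in R821E, -0.93 in R821A, -0.79 in E5, -0.55 in A5 and -0.27 in ΔPAZ helix, while the median of all entries lay between -0.10 and 0.03. let-7i-5p, the most abundant of the 6, fell by 1.02 in R821E, 0.97 in R821A and 0.95 in E5. let-7f-5p fell by 0.86, 0.90 and 0.64 in the same order, and let-7b-5p (0.27, -0.23 and -0.27) did not pass. Of the 2 group I guides, let-7e-5p fell in R821E (-1.60), R821A (-1.34) and E5 (-1.24). let-7c-5p, with a mean of 12.7 counts, had -0.64, -0.39 and 0.25 in the same order and did not pass. The median of the 2 was -1.12 in R821E, -0.87 in R821A, -0.50 in E5, -0.36 in A5 and -0.28 in ΔPAZ helix. Both medians were below 0 in each mutant, that of group I from 2 strands that differed in sign in E5. let-7a-5p, which comes from precursors of both groups, was left out of both lists. A part of uridine addition in these values was not tested. The let-7 strands differ at few bases, and the sources used here do not say how the authors counted a read that matches more than one of them, so values of a single let-7 strand are uncertain.

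On the TMM scale 2 neighbours of MIR324 rose in R821E, where 89 of all 374 entries rose on that scale and 1 on the spike-in scale. Of 7 other hairpins annotated within 1 Mb of MIR324, 5 mature entries were in the tables and 3 were tested. miR-4521 rose by 1.13 in R821E (edgeR adjusted p = 0.00125) and miR-195-5p by 1.38 (adjusted p = 0.0311), while miR-497-5p had 0.42 (adjusted p = 0.634). None of the 3 passed in another mutant against WT.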

How the data were processed

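Small RNA was sequenced by AQ-seq, a protocol designed to lower ligation bias, from 100 µg of total RNA per library on an Illumina NovaSeq, per the labels' protocols. The authors deposited raw counts per miRNA or spike-in entry, 1 table per library. The submitters' processing notes list cutadapt, bedtools and BWA as tools and mm10 and hg38 as builds. No version, no role of a build and no rule for reads that match several miRNAs is stated in the sources used here.

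Spike-in rows (30 of 1376) entered neither library sizes nor tests. Levels and summed arms were tested with edgeR 4.0.16 under R 4.3.3 (robust quasi-likelihood test, TMM, filterByExpr) over all 12 libraries, with 6 residual degrees of freedom. The filter kept 374 entries with 99.6% of miRNA counts and 283 hairpin totals, and both miR-324 strands passed it. Strand ratios were tested with limma 3.58.1 (trend, robust) on the log2 ratio of 5p + 0.5 to 3p + 0.5 counts in the 69 hairpins whose arms both averaged 20 counts or more. Each mutant was compared with WT, and 3 pairs of mutants with each other. Benjamini-Hochberg adjustment ran over all features of a comparison, with a threshold of 0.05. The fits were tested on simulated data that gave every group the same spread, so that test cannot show what unequal spreads do. Shares carry exact 95% intervals (scipy 1.17.1), and the hairpin was folded with ViennaRNA 2.7.2. Replicates were compared first: chi-square divided by its degrees of freedom ran between 3.83 in ΔPAZ helix and 25.6 in WT, so no pair was a copy. Because the fits share 1 spread among groups and the WT pair lay farthest apart by this measure, p-values for comparisons with WT may come out too low.

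Named entries were the 2 strands, the 5 entries or hairpins most like each measure, the neighbours in the order of ratio changes and the members of 3 lists. The members, lists and tests were chosen with earlier results of these data known. Alternatives were DESeq2 1.42.0, limma-voom, other scalings and filters, pseudocounts of 0.1 and 1, an edgeR model of both strands, no robust step, the 4 libraries compared, a replicate block and leaving out each library. Sequences come from RefSeq tables of GRCh38.p14, where 1179 of 1346 miRNA entries matched by name, and gene overlap from GENCODE 29.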

Additional observations from a re-analysis of the deposited data

Results flagged for a closer look

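The level of miR-324 differed between mutants by direct tests of the difference, and no difference in its strand ratio passed. R821E stood below R821A in miR-324-3p (log2 difference -1.33), in miR-324-5p (-1.11) and in the sum of both strands (-1.25), by edgeR with adjusted p = 0.00215, 0.0434 and 0.00571. R821E stood below E5 in miR-324-3p (-0.88) and in the sum (-0.83), with adjusted p = 0.0280 and 0.0492. Such calls were common, with 41.4% of entries and 39.6% of hairpin totals called against R821A, and 30.2% and 32.2% against E5. The ratio difference was 0.22 from R821A and 0.15 from E5 (limma adjusted p = 0.651 and 0.783). The 3p difference from R821A passed in every recomputation, and the others did not. The 5p difference from R821A was lost with DESeq2 size factors, DESeq2, limma-voom, the replicate block and without R821E replicate 1 or R821A replicate 1. The sum against R821A was lost without R821E replicate 1. Against E5, 3p was lost without E5 replicate 2 or either R821E library, and the sum with only the 4 libraries, with the replicate block and without E5 replicate 2 or R821E replicate 1. What sets these mutants apart was not tested.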

How the results depend on the processing

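Of 400 recomputed values for the 2 strands, their ratio and their sum in 8 comparisons, 349 kept their direction and their side of the threshold, 23 no longer passed it, 14 newly passed it and 14 changed sign. On the spike-in scale calls were gained in R821A for 5p (-1.34), in E5 for 3p (-0.78) and the sum (-1.31), in A5 for 5p (-1.29) and the sum (-0.93), in ΔPAZ helix for 5p (-1.38), 3p (-1.10) and the sum (-1.24), and for 5p in R821E against E5 (-1.39), while 3p in R821A changed sign (-0.0854). Without a filter 5p in R821A passed (-0.99). The edgeR model of both strands gained the ratio calls of R821A (-1.23) and E5 (-1.18). For 5p in R821E against R821A the call was lost with DESeq2 size factors (-1.07), DESeq2 (-1.05) and limma-voom (-1.18). With only the 4 libraries compared calls were lost for 5p in E5 (-1.42), the ratio in R821E (-1.01) and the sum in R821E against E5 (-0.86). 3p in E5 against A5 changed sign with DESeq2 size factors (3.17e-04), DESeq2 (3.09e-04) and no filter (0.0116).

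Replicate numbers showed little common shift across the groups, which cannot tell whether libraries were prepared in matched pairs, and the labels do not say. Of 15 pairs of groups, 1 had replicate differences with r over 0.1 (range -0.50 to 0.37). With the replicate block the value was -1.38 for 5p in E5, -1.09 for 5p in R821E against R821A and -0.83 for the sum in R821E against E5, each then past no threshold, and the block changed no other call on miR-324. It moved the called entries to 22 in E5, against 34 without it, and to 0 in A5, against 1, and the called hairpin totals to 17 in E5, against 33.

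Leaving out 1 library at a time changed a call or a sign for the results that follow, given by their lowest and highest values. Against WT they were -1.21 and -0.86 (3p, R821E), -1.42 and -0.51 (5p, R821A), -1.76 and -0.92 (5p, E5), -0.47 and 0.0707 (3p, E5), -0.32 and 0.0307 (3p, A5), -1.36 and -0.66 (ratio, R821E), -0.51 and 0.0382 (ratio, ΔPAZ helix), -0.47 and 0.0813 (sum, R821A), and -1.02 and -0.42 (sum, E5). For R821E against R821A they were -1.63 and -0.60 (5p), -0.13 and 0.57 (ratio), and -1.66 and -1.02 (sum). For R821E against E5 they were -1.08 and -0.61 (3p), -0.20 and 0.50 (ratio), and -1.23 and -0.54 (sum). For E5 against A5 they were -0.33 and 0.19 (3p) and -0.53 and 0.0144 (sum). Among results that kept call and sign, 5p without WT replicate 1 was -0.35 in A5 and -0.45 in ΔPAZ helix, and the A5 ratio was -0.35. Without WT replicate 2 the same values were -1.19, -1.28 and -0.90. Without R821E replicate 1, 5p in R821E against E5 was -0.19. The cause of these changes was not tested.

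The called entries ranged over the other settings and left-out libraries from 114 to 227 in R821E, 0 to 17 in R821A, 0 to 102 in E5, 0 to 55 in A5 and 0 to 49 in ΔPAZ helix. They ranged from 73 to 184 for R821E against R821A and from 32 to 140 for R821E against E5. Called ratios ranged from 11 to 39 in R821E, 0 to 4 in R821A, 0 to 5 in E5, 0 to 2 in A5 and 0 to 1 in ΔPAZ helix. Called totals ranged from 101 to 179 in R821E, 0 to 16 in R821A, 0 to 84 in E5, 0 to 46 in A5 and 0 to 57 in ΔPAZ helix. With total counts 40 entries rose and 148 fell in R821E, around a median of -0.65. Depth limits the strand values most in R821E, with 35 counts of 5p and 63 of 3p in all. The Wilson interval of the 5p share was 18.7% to 44.0% for R821E replicate 1, the library with the fewest miR-324 counts.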
